A study of Mus musculus with 8 samples.

Results

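Hlf, Myb, Mecom, Prdm16, Meis1, Msi2 and Mllt3 are regulators of blood stem cells, and their RNA was followed here in the cells from which the first stem cells of the mouse embryo arise. The genes were taken by name, with every probe that carries the name and is not a control spot, which gave 10 probes for 7 genes out of 31890 gene names on the array. All 7 genes passed the filter on dim probes, among 19538 genes tested. The cells came from 100 pooled embryos at E10.5, from C57BL/6 x 129S1/SVImJ F1 females mated with Tg(Ly6a-GFP) males. The reporter places green fluorescent protein (GFP) under regulatory sequence of Ly6a, which encodes the surface antigen Sca-1 of stem cells. Every group carried the reporter. The dissected tissue is written A+U+V in the labels, which in this field stands for the aorta-gonad-mesonephros region with the umbilical and vitelline arteries, and the sex of the pooled embryos is given as male.

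Hematopoietic cluster cells bud into the vessel from the arterial wall and were sorted as CD31+ VEC+ ESAM+ Kit+, and endothelial cells as CD31+ VEC+ ESAM+ Kit-. GFP divided both classes, which gave 30000 GFP+ cluster cells, 130000 GFP- cluster cells, 70000 GFP+ endothelial cells and 300000 GFP- endothelial cells. From each group, RNA was divided in 2, and both fractions went through amplification to a 1-colour array of their own, so n = 2 arrays throughout. An SD or a p-value here therefore measures the technical spread between arrays of divided RNA, not the spread between embryos, pools or sorts. Between 54.6% and 63.7% of probes on an array were well above background, and no probe was saturated. Precision is limited by how few arrays there are. All 8 genes of a list of endothelial markers were well above background in every group, cluster cells included. So were Pecam1, Cdh5, Esam and Kit, the genes of the sorted antigens, and Ly6a, whose regulatory sequence drives GFP. Kit RNA was thus well above background also in the endothelial groups, which were sorted as Kit-.

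Hlf encodes a transcription factor of the PAR bZIP family that keeps adult stem cells quiescent, and Myb one that definitive blood formation needs. Mecom, whose products include Evi1, and Prdm16 encode zinc finger proteins of the PRDM family that maintain stem cells. Meis1 encodes a homeodomain partner of Hox proteins. The other two are not DNA-binding factors of this kind: Msi2 encodes an RNA-binding protein that controls translation, and Mllt3 a reader of acylated histones that works with elongation complexes. In bulk samples, fewer cells that express a gene and less of its RNA per cell cannot be told apart.

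Before the values, the sequence at the start of Mecom and Prdm16 is shown, because these PRDM genes share a stretch there. The RefSeq windows (build GRCm38.p6) run from 250 bases before to 50 bases after a transcription start, and all 7 genes matched, with 11 starts between them. Mecom start 1 lies in chr3:30509710-30510009 on the minus strand and Prdm16 in chr4:154636824-154637123 on the minus strand. Capitals mark the shared run.
Mecom start 1: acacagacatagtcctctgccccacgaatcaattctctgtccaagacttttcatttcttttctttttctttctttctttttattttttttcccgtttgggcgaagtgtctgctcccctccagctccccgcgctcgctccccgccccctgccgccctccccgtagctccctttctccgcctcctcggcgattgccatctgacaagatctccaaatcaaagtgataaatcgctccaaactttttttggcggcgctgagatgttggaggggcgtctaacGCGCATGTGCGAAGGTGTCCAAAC
Prdm16: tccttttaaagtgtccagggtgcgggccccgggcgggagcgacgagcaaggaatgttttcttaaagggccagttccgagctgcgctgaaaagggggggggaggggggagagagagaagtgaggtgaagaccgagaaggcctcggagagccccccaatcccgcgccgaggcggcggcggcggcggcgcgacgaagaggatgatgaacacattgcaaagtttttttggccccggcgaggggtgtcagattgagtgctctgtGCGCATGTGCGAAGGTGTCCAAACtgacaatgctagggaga
The run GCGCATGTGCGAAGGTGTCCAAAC is 24 bases long, at bases 27 to 50 after the Mecom start and 10 to 33 after the Prdm16 start. The Mecom window ends with the run, so 24 bases is the least that is shared, and a longer stretch could not be seen. The run was found in 0 other of the 32851 windows, on either strand. The next longest run shared between windows of different genes of the set was 12 bases, between Hlf and Msi2.

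The same windows were searched on both strands for the letters of motifs bound by factors of this circle. The PAR bZIP palindrome TTACGTAA, in 0.119% of all windows, and the Evi1 zinc finger site GACAAGATA, also in 0.119%, were in 0 of the 11 starts, and so was the Myb site (CAACGG or CAACTG or TAACGG or TAACTG), in 28.3% of all windows. A GATA site (AGATAA or TGATAA, 18.6% of windows) was in 1 start, Mecom start 1. The Runx site (TGTGGT or TGCGGT, 22.4% of windows) was in the Meis1 window and in the 3 overlapping Msi2 windows. The Meis site TGACAG (19.2% of windows) was in Mecom start 2 and Mllt3 start 2, and the Ets site CCGGAAGT (3.89% of windows) was in the Meis1 window. These matches describe letters in short windows, and binding was not measured.

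The first comparison set GFP+ against GFP- cells in each class and asks which of these regulators are higher where the stem cell reporter is active. In cluster cells 6 of the 7 genes were higher in the GFP+ group and 0 lower, with Hlf and Myb far ahead of the others and Mllt3 the 1 that did not pass. In endothelial cells 6 of 7 were also higher and 0 lower, here with Msi2 as the 1 that did not pass. Differences are given as log2 fold changes ± SE, n = 2 against 2 arrays, with p-values from limma adjusted by Benjamini-Hochberg over all genes tested and a threshold of 0.05. Calls were common between these arrays of divided RNA: 32.7% of all genes were called between the cluster cell groups (11.8% higher, 20.9% lower) and 51.5% between the endothelial groups (18.1% higher, 33.3% lower). The median log2 fold change of the 7 genes was 0.84 in cluster cells and 0.48 in endothelial cells, against -0.08 and -0.13 over all genes.

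With the planned normexp background correction, 0 of the 7 genes were called in either class, when 127 and 100 of all genes were called. A normexp fit that left out the 10 lowest spots of each array, added after the data were seen, called 6 of 7 genes in cluster cells and 5 of 7 in endothelial cells. Calls over all genes were common again with that fit, without a large change from the 6397 and 10061 called without normexp. Levels are log2 of the processed signal relative to each array's 75th percentile, so a level of 0 equals that percentile, and levels of different probes are not compared.

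Hlf (probe at chr11:90200696-90200755, mm9) spanned 5.47 ± 0.21 on the log2 scale between the highest and the lowest group, close to the 5.37 ± 0.062 of Myb. Without GFP- endothelial replicate 1 the Hlf span was 5.13, and with planned normexp the spans were 2.99 for Hlf and 4.46 for Myb. The Hlf level was 0.89 and 0.94 on the arrays of GFP+ cluster cells, -1.47 and -1.52 in the GFP- ones, -3.19 and -3.16 in GFP+ endothelial cells, and -4.90 and -4.21 in GFP- endothelial cells. The 4 groups did not overlap, and cluster cells lay above endothelial cells at both GFP states. Hlf was 5.33-fold higher in GFP+ than in GFP- cluster cells, a log2 fold change of 2.41 ± 0.21 (adjusted p = 0.000695), and 0.445% of all genes had a larger change. In endothelial cells the log2 fold change was 1.38 ± 0.21, 2.60-fold (adjusted p = 0.00373), but 0.62 with the added normexp fit (adjusted p = 0.00598) and -0.38 with the planned one (adjusted p = 0.723). It was 1.71 on slide 1 and 1.05 on slide 2, and the GFP- endothelial arrays had signals of 31 and 47 units, the lowest of its 8 arrays.

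Myb (chr10:20844736-20844795, mm9) had the same order of groups with tighter arrays. Its level was 3.19 and 3.12 in GFP+ cluster cells, 1.30 and 1.21 in the GFP- ones, -1.29 and -1.37 in GFP+ endothelial cells and -2.26 and -2.18 in GFP- endothelial cells. No groups overlapped. Myb was 3.73-fold higher in GFP+ than in GFP- cluster cells, a log2 fold change of 1.90 ± 0.062 (adjusted p = 3.83e-05), and 1.85-fold higher in GFP+ than in GFP- endothelial cells, 0.89 ± 0.062 (adjusted p = 0.000393). The GFP difference was alike on both slides in cluster cells, 1.89 and 1.91, and was 0.97 and 0.80 in endothelial cells. The endothelial value was 0.68 with the added normexp fit (adjusted p = 0.000591) and 0.17 with the planned one (adjusted p = 0.757).

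**Figure D1:**
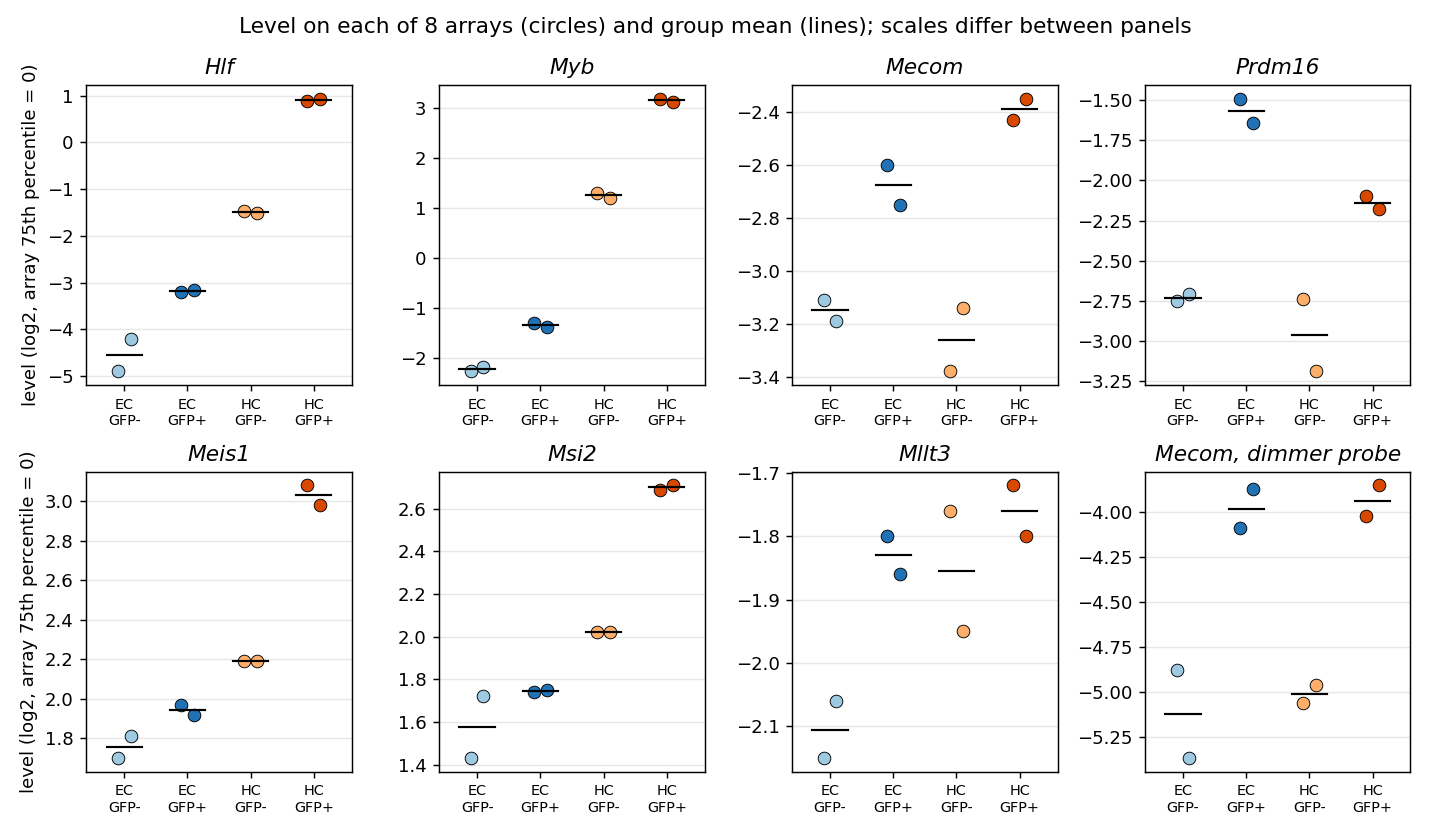
Log2 level (array 75th percentile = 0) of the brightest probe of each of the 7 genes, and of the dimmer Mecom probe, on each of 8 arrays (circles) with group means (lines); HC, hematopoietic cluster cells; EC, endothelial cells. Hlf and Myb fall in steps from GFP+ cluster cells to GFP- endothelial cells, Mecom is high in both GFP+ groups, and Prdm16 is highest in GFP+ endothelial cells, between -1.64 and -1.49.

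Mecom has a pair of probes in different places of the locus. The brighter one (chr3:29876185-29876244, mm9, paired with NM_007963 in the array files) read -2.43 and -2.35 in GFP+ cluster cells, -3.38 and -3.14 in the GFP- ones, -2.60 and -2.75 in GFP+ endothelial cells, and -3.11 and -3.19 in GFP- endothelial cells. Both GFP+ groups lay above both GFP- groups, and the GFP- groups overlapped. Its log2 fold change by GFP was 0.87 ± 0.098 in cluster cells (adjusted p = 0.00189) and 0.48 ± 0.098 in endothelial cells (adjusted p = 0.0107), where planned normexp gave -0.44. The endothelial call was lost without GFP+ endothelial replicate 1 (adjusted p = 0.0542) and without GFP- endothelial replicate 2 (adjusted p = 0.0585).

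The dimmer Mecom probe (chr3:30135491-30135550, mm9, paired with NM_021442) showed the same grouping. It read -4.02 and -3.85 in GFP+ cluster cells, -5.06 and -4.96 in the GFP- ones, -4.09 and -3.87 in GFP+ endothelial cells, and -4.88 and -5.37 in GFP- endothelial cells. With every probe as its own feature, its log2 fold change by GFP was 1.08 ± 0.17 in cluster cells (adjusted p = 0.00727) and 1.14 ± 0.17 in endothelial cells (adjusted p = 0.00382). It was well above background on 6 of 8 arrays, missing 1 array of each GFP- group. With the added normexp fit its difference was 0.40 in cluster cells (adjusted p = 0.0393) and 0.29 in endothelial cells, where the call was lost (adjusted p = 0.0735), and planned normexp turned the endothelial value to -0.73.

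Prdm16 (chr4:153690254-153690313, mm9) was the 1 gene of the set whose highest level was in endothelium. It read -2.10 and -2.18 in GFP+ cluster cells, -2.74 and -3.19 in the GFP- ones, -1.49 and -1.64 in GFP+ endothelial cells, and -2.75 and -2.71 in GFP- endothelial cells. GFP+ endothelial cells lay above all others, and the GFP- groups overlapped. The log2 fold change by GFP was 1.17 ± 0.15 in endothelial cells (2.24-fold, adjusted p = 0.00214) and 0.82 ± 0.15 in cluster cells (adjusted p = 0.0102). The endothelial value was 0.85 with the added normexp fit (adjusted p = 0.000289) and 0.10 with the planned one (adjusted p = 0.902). The call in cluster cells was lost without GFP+ cluster replicate 1 (adjusted p = 0.0519) and with only the compared groups in the fit (adjusted p = 0.0531).

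Meis1 (chr11:18780695-18780754, mm9) read 3.08 and 2.98 in GFP+ cluster cells, 2.19 and 2.19 in the GFP- ones, 1.97 and 1.92 in GFP+ endothelial cells, and 1.70 and 1.81 in GFP- endothelial cells. It was above the 75th percentile on every array, and the groups did not overlap. The log2 fold change by GFP was 0.84 ± 0.059 in cluster cells (adjusted p = 0.000351) and 0.19 ± 0.059 in endothelial cells (adjusted p = 0.0389). The endothelial call was lost with only the compared groups in the fit (adjusted p = 0.0772), with no filter on dim probes (0.108), under both normexp fits, and without any 1 of GFP+ endothelial replicates 1 and 2 (0.153 and 0.0825), GFP- endothelial replicate 1 (0.161) or GFP- cluster replicates 1 and 2 (0.0679 each).

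Msi2 is read by 3 probes, and the bright one (chr11:88152912-88152971, mm9) was close to Meis1 in pattern. It read 2.69 and 2.71 in GFP+ cluster cells, 2.02 and 2.02 in the GFP- ones, 1.74 and 1.75 in GFP+ endothelial cells, and 1.43 and 1.72 in GFP- endothelial cells. GFP+ cluster cells stood above the rest, and the endothelial groups were close together. The log2 fold change by GFP was 0.68 ± 0.095 in cluster cells (adjusted p = 0.0041) and 0.17 ± 0.095 in endothelial cells, which did not pass (adjusted p = 0.18) but did without GFP- endothelial replicate 2 (0.32, adjusted p = 0.0135).

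The other two Msi2 probes, paired with XM_001471946 and overlapping each other, were dim. One of them (chr11:88547287-88547346, mm9) was well above background on 6 arrays and had a log2 fold change by GFP of 0.14 ± 0.27 in cluster cells (adjusted p = 0.74) and -0.83 ± 0.27 in endothelial cells (adjusted p = 0.0448). That call was lost with quantile normalization (-0.47, adjusted p = 0.119), the authors' table (-0.44, 0.141), both normexp fits (-1.24 planned, -0.24 added), no filter on dim probes (0.0922), and without GFP+ endothelial replicate 1 (0.131) or 2 (0.123), GFP- endothelial replicate 2 (0.196) or either GFP+ cluster array (0.0684). The last one (chr11:88547261-88547320, mm9) was well above background on 2 arrays, failed the filter, and read between -6.42 and -4.29. With the mean of the probes of a gene in place of the brightest, Msi2 had a log2 fold change by GFP of 0.30 in cluster cells (adjusted p = 0.197) and -0.55 in endothelial cells (adjusted p = 0.0301), so its calls by GFP rest on the bright probe.

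Mllt3 (chr4:87418870-87418929, mm9) varied least. It read -1.72 and -1.80 in GFP+ cluster cells, -1.76 and -1.95 in the GFP- ones, -1.80 and -1.86 in GFP+ endothelial cells, and -2.15 and -2.06 in GFP- endothelial cells. GFP- endothelial cells were below the rest, and the other 3 groups lay together, with GFP- cluster cells overlapping both GFP+ groups. The log2 fold change by GFP was 0.10 ± 0.079 in cluster cells, which did not pass (adjusted p = 0.411), and 0.27 ± 0.079 in endothelial cells (adjusted p = 0.0324). The endothelial call was lost with quantile normalization (adjusted p = 0.0874), with the authors' table (0.0873), with no filter on dim probes (0.0834), with planned normexp, and without any 1 of the 4 endothelial arrays (0.0639 to 0.14).

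The second comparison set cluster cells against endothelial cells at the same GFP state and asks which of the regulators go with the blood-forming class. Among GFP+ cells 4 of 7 genes were higher in cluster cells (Hlf, Myb, Meis1 and Msi2), 1 was lower (Prdm16) and 2 did not pass, when 50.4% of all genes were called (26.1% higher, 24.2% lower). Among GFP- cells the same 4 genes were higher, 0 lower and 3 did not pass, when 24.3% of all genes were called (11.9% higher, 12.4% lower). The median log2 fold change of the set was 0.96 among GFP+ and 0.44 among GFP- cells, against 0.03 and 0.00 over all genes.

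Myb was 22.4-fold higher in cluster cells than in endothelial cells among GFP+ cells (log2 fold change 4.49 ± 0.062, adjusted p = 4.91e-06) and 11.1-fold higher among GFP- cells (3.47 ± 0.062, adjusted p = 3.45e-05). It ranked 13th and 8th of all genes tested by the size of this difference. Hlf was 17.1-fold higher among GFP+ cells (4.09 ± 0.21, adjusted p = 0.000116) and 8.32-fold higher among GFP- cells (3.06 ± 0.21, adjusted p = 0.000874), at ranks 26 and 17. With planned normexp the Hlf difference was 3.37 (adjusted p = 0.113) and 0.78 (adjusted p = 0.493), and the Myb difference among GFP- cells was 2.57 (adjusted p = 0.182). That correction left 2 of 7 genes called among GFP+ cells, Myb and Meis1, and 0 among GFP- cells.

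Meis1 was 2.12-fold higher in cluster cells among GFP+ cells (1.08 ± 0.059, adjusted p = 0.000138) and 1.35-fold higher among GFP- cells (0.44 ± 0.059, adjusted p = 0.00739). Msi2 was 1.94-fold higher among GFP+ cells (0.96 ± 0.095, adjusted p = 0.000829) and 1.36-fold higher among GFP- cells (0.45 ± 0.095, adjusted p = 0.0252). The Msi2 call among GFP- cells was lost in 6 alternatives, among them the mean of its probes (0.35, adjusted p = 0.157) and leaving out GFP- cluster replicate 1 (adjusted p = 0.0995) or 2 (adjusted p = 0.106).

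Among GFP+ cells Prdm16 was lower in the cluster class, by a log2 fold change of -0.58 ± 0.15 (adjusted p = 0.0219). Leaving out any 1 of these 4 arrays took the adjusted p to between 0.0501 and 0.0965. Among GFP- cells Prdm16 had a difference of -0.24 ± 0.15 (adjusted p = 0.297), which was 0.00 on slide 1 and -0.48 on slide 2, and it passed without GFP- cluster replicate 1 (-0.47, adjusted p = 0.0489). Mecom differed by 0.29 ± 0.098 among GFP+ cells (adjusted p = 0.056) and -0.11 ± 0.098 among GFP- cells (adjusted p = 0.48). The first of these passed when only genes well above background on all 8 arrays were tested (adjusted p = 0.0399) and without either GFP- cluster array (adjusted p = 0.0334). Mllt3 differed by 0.07 ± 0.079 (adjusted p = 0.465) and 0.25 ± 0.079 (adjusted p = 0.0708).

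**Figure D2:**
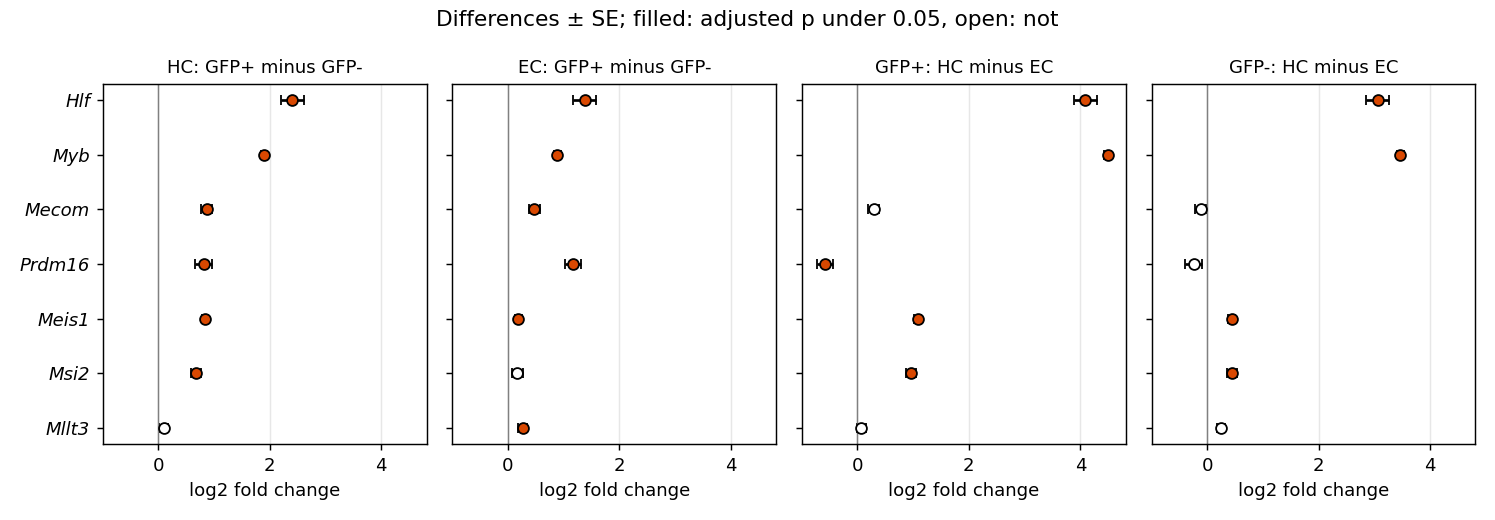
Log2 fold change ± SE of the 7 genes for GFP+ minus GFP- cells in hematopoietic cluster cells (HC) and endothelial cells (EC), and for HC minus EC among GFP+ and GFP- cells, n = 2 against 2 arrays; filled circles passed an adjusted p of 0.05 and open circles did not. Hlf and Myb stand apart in the class panels, between 3.06 and 4.49, and Prdm16 is the 1 gene of the set below 0 with a filled circle, at -0.58.

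Each gene can be placed by the order of its group means, with neighbouring groups compared in the same fit. For Hlf, Myb and Meis1 the order was GFP+ cluster, GFP- cluster, GFP+ endothelial and GFP- endothelial cells, and all 3 steps passed. Between GFP- cluster and GFP+ endothelial cells 47.1% of all genes were called (31.4% higher in the cluster cells, 15.7% lower). There 51.9% of all genes had a larger change than Meis1. The middle step, GFP- cluster over GFP+ endothelial cells, was 1.68 ± 0.21 for Hlf (adjusted p = 0.00253), 2.59 ± 0.062 for Myb (adjusted p = 1.34e-05) and 0.24 ± 0.059 for Meis1 (adjusted p = 0.021), where leaving out any 1 of the 4 arrays took the Meis1 value past the threshold (adjusted p from 0.059 to 0.0897). Msi2 had the same order, but its middle and last steps, 0.28 ± 0.095 (adjusted p = 0.06) and 0.17, did not pass.

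For Mecom the order was GFP+ cluster, GFP+ endothelial, GFP- endothelial and GFP- cluster cells. Only its middle step passed, and its GFP+ endothelial level was above its GFP- cluster level by 0.58 ± 0.098, a log2 fold change of -0.58 for cluster over endothelium (adjusted p = 0.00659). For Prdm16 the order was GFP+ endothelial, GFP+ cluster, GFP- endothelial and GFP- cluster cells. Its first step of 0.58 ± 0.15 and its middle step of 0.58 ± 0.15 (adjusted p = 0.0211) passed, the last did not, and leaving out any 1 of the arrays of the middle step ended that call, as did quantile normalization (adjusted p = 0.0716). For Mllt3 the order was GFP+ cluster, GFP+ endothelial, GFP- cluster and GFP- endothelial cells, and no step passed. Its last step was 0.25 ± 0.079 (adjusted p = 0.0708) with no overlap between the arrays, and its middle step was 0.02 with overlap. All 7 genes were higher in the GFP+ cluster group than in the GFP- endothelial group, the diagonal of the design, where 50.6% of all genes were called (19.2% higher, 31.4% lower). On leaving out each array 5 to 7 of them passed. The Mllt3 difference of 0.35 (adjusted p = 0.0139) lost its call with quantile normalization (0.0777), the authors' table (0.0766) and without GFP- endothelial replicate 1 (0.0738) or GFP+ cluster replicate 1 (0.0664), and planned normexp reversed Mecom, Prdm16 and Mllt3.

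The GFP difference itself was compared between the classes, as the difference in cluster cells minus that in endothelial cells. It was larger in cluster cells for 4 of 7 genes and smaller for 0, when 31.1% of all genes were called (15.7% higher, 15.5% lower), and the GFP differences being compared share no arrays. Myb had a difference of 1.01 ± 0.087 (adjusted p = 0.00219) and Meis1 one of 0.64 ± 0.084 (adjusted p = 0.00559). Hlf had 1.04 ± 0.30 (adjusted p = 0.0463) and Msi2 0.51 ± 0.14 (adjusted p = 0.0378), and both lost the call without GFP+ endothelial replicate 1 or 2, without GFP+ cluster replicate 1 or 2 and without GFP- cluster replicate 1 or 2, with adjusted p from 0.0968 to 0.112 for Hlf and 0.0813 to 0.1 for Msi2. With no filter on dim probes the adjusted p was 0.111 for Hlf and 0.104 for Msi2. Mecom (0.39 ± 0.14, adjusted p = 0.0825), Prdm16 (-0.34 ± 0.21, adjusted p = 0.26) and Mllt3 (-0.18 ± 0.11, adjusted p = 0.27) did not pass. Without GFP- cluster replicate 2 Mecom passed at 0.51 (adjusted p = 0.0444) and Prdm16 at -0.57 (adjusted p = 0.0342).

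Markers of other cells moved with these groups. All 8 markers of blood cells in general rose with GFP in cluster cells, and 5 of 8 did in endothelial cells. Their summed level, in multiples of the 75th percentile, was 34.3 to 34.5 in GFP+ cluster cells, 9.24 to 9.36 in GFP- cluster cells, 4.03 to 4.03 in GFP+ endothelial cells and 3.08 to 3.29 in GFP- endothelial cells, which is the order of Hlf, Myb and Meis1. All 10 macrophage markers rose with GFP in both classes, with sums of 31.0 to 31.6 in GFP+ and 11 to 11.3 in GFP- cluster cells, and of 11.1 to 11.6 in GFP+ and 5.13 to 5.22 in GFP- endothelial cells. All 12 erythroid markers fell with GFP in both classes, with sums of 146 against 1090 to 1110 in cluster cells and 158 to 166 against 724 to 748 in endothelial cells. In every group 8 of 8 blood markers, at least 6 of 10 macrophage markers and at least 10 of 12 erythroid markers were well above background. Their part in the values of Hlf, Myb, Meis1 and Msi2 was not tested.

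Markers of arterial endothelium were highest where Prdm16 was. Their summed level was 55.9 to 57.0 in GFP+ endothelial cells, 28.5 to 29.0 in GFP- endothelial cells, 22.8 to 23.6 in GFP+ cluster cells and 17.5 to 18 in GFP- cluster cells. Below the top group this was not the order of Prdm16, which was higher in GFP+ cluster than in GFP- endothelial cells, by 0.58 ± 0.15. Among GFP+ cells all 8 were lower in cluster cells than in endothelial cells, and 6 of 8 rose with GFP in endothelial cells. The part of arterial cells in the Prdm16 values was not tested. Megakaryocyte markers had sums of 19.0 to 19.2 in GFP- endothelial cells and 4.87 to 9.80 in the other groups. Their order was not that of any of the 7 genes. Markers of mesenchyme and smooth muscle ran in the reverse order of Hlf, Myb, Meis1 and Msi2. They summed to 26.0 to 27.0 in GFP- and 22.0 to 22.3 in GFP+ endothelial cells. In cluster cells the sums were 20.3 to 20.4 in the GFP- and 13.0 to 13.4 in the GFP+ group. The part of such cells in these values was not tested. Endothelial markers summed to between 226 and 328, neural ones to between 3.78 and 7.78, and liver and yolk sac ones to between 4.49 and 9.14.

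**Figure D3:**
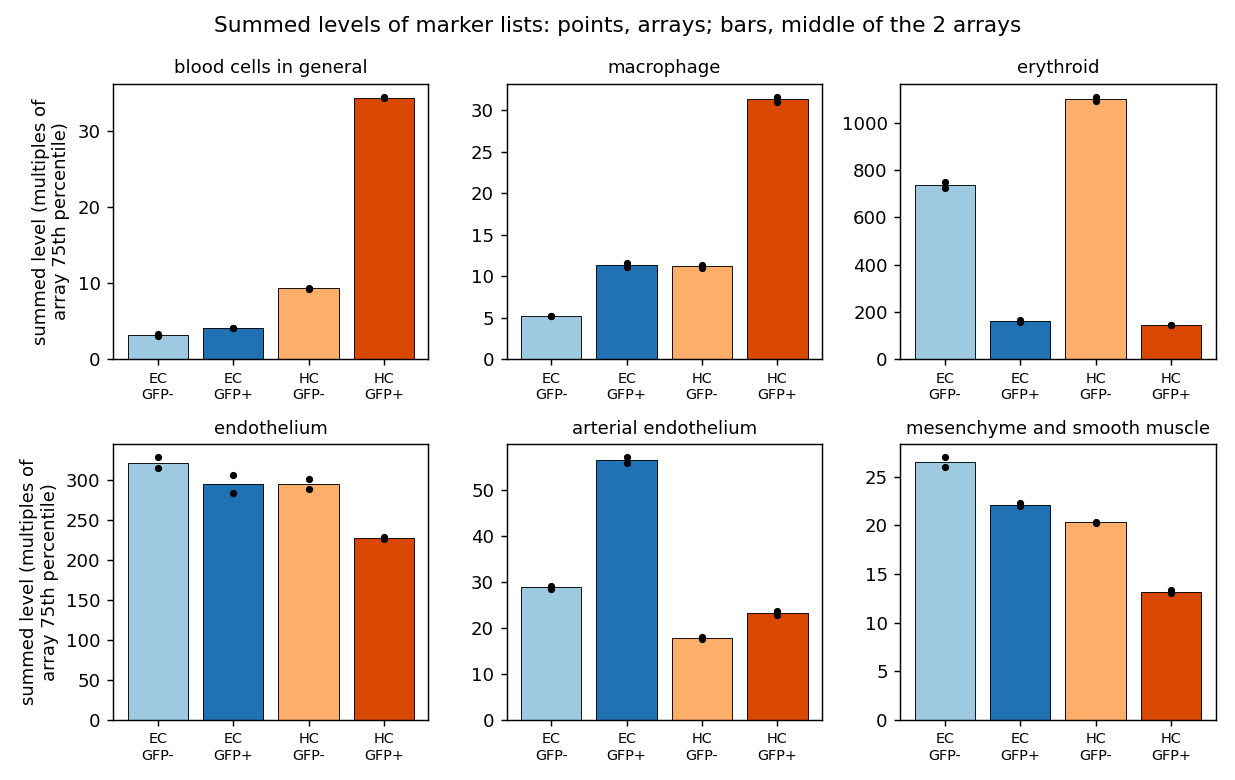
Summed level of 6 marker lists in multiples of the array's 75th percentile, with a point for each array and a bar at the middle of the 2 arrays, for endothelial cells (EC) and hematopoietic cluster cells (HC) by GFP; scales start at 0 and differ between panels. Blood markers follow the order of Hlf and Myb, from about 34.5 in GFP+ cluster cells down to 3.08 in GFP- endothelial cells. Arterial markers are highest in GFP+ endothelial cells, as is Prdm16, but below that group their order is not that of Prdm16.

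The relatives, partners and known targets of the 7 genes were read next, from lists of 95 other genes, of which 89 were tested. In cluster cells 24 of the 89 rose with GFP and 25 fell, when 11.8% of all genes were called higher and 20.9% lower. In endothelial cells 21 rose and 26 fell, when 18.1% of all genes were called higher and 33.3% lower. By GFP the lists thus held genes that moved either way in both classes. Their median log2 fold changes by GFP were -0.06 and -0.09, against -0.08 and -0.13 over all genes. Between the classes 38 were higher and 24 lower in cluster cells among GFP+ cells, when 26.1% and 24.2% of all genes were. Among GFP- cells 23 were higher and 5 lower, when 11.9% and 12.4% of all genes were. With planned normexp, 11 of the endothelial values named below reversed, and they are listed with the alternatives.

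Of the 4 bZIP factors in the list around Hlf, 3 rose and 1 fell in GFP+ cluster cells. Tef (0.46) and Dbp (0.53), the other PAR bZIP factors, rose there with much smaller changes than Hlf, and Nfil3, a repressor that binds the same sites, fell (-0.54). In GFP+ endothelial cells 1 rose and 1 fell, as Nfil3 fell by 0.28 and Tef and Dbp did not pass. In the Myb family Mybl2, a cell cycle factor, fell with GFP in both classes (-0.29 in cluster cells and -0.40 in endothelial cells). Mybl1 was dim, well above background on 3 arrays, and was at least 1.85-fold higher in GFP+ than in GFP- endothelial cells. A gene this dim passes the filter only through a group where it is bright, and planned normexp turned the log2 difference to -0.92.

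Of 15 PRDM genes 11 were tested, and in cluster cells 3 rose with GFP (Mecom, Prdm16 and, at 0.30, Prdm15) and 3 fell. The falls were in Prdm1 (-0.98), which encodes a repressor of transcription, Prdm4 (-0.25) and the dim Prdm6. Prdm6 was at least 1.59-fold lower, since it was not well above background in GFP+ cluster cells. In endothelial cells 3 rose (Prdm16, Mecom and, at 0.36, Prdm2) and 2 fell, Prdm1 (-0.87) and the dim Prdm10 (-1.0). The cofactors of Myb, Mecom and Prdm16 gave 1 rise and 3 falls of 11 in cluster cells. The histone deacetylase gene Hdac2 rose there (0.37) and Skil (-0.32), Hdac1 (-0.27) and Ctbp1 (-0.23) fell, with another Skil probe at 0.10. In endothelial cells 3 of 11 rose, Skil (0.37), Hdac2 (0.24) and Ctbp2 (0.18), and 3 fell, the histone methyltransferase genes Suv39h1 (-1.13) and Ehmt2 (-0.20) and the acetyltransferase gene Ep300 (-0.31). Ehmt2 was at 0.13 with quantile normalization.

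Around Meis1, 1 of 7 tested TALE homeodomain genes rose in GFP+ cluster cells, Meis1 itself, and 3 fell, Pknox2 (-0.58), Pbx3 (-0.44) and Meis3 (-0.36). In GFP+ endothelial cells 2 rose, Meis1 and Meis2 (0.76), and 2 fell, Meis3 (-0.52) and Pbx2 (-0.31). Of 7 Hox partners 1 rose in cluster cells, Hoxa9 (0.49), and 4 fell, Hoxb5 (-0.82), Hoxb3 (-0.76), Hoxb4 (-0.40) and Hoxa5 (-0.28). In endothelial cells Hoxa9 rose (0.17) and Hoxa7 (-0.68), Hoxb5 (-0.43) and Hoxa10 (-0.22) fell. Of 5 known Meis1 targets 1 rose in cluster cells, the receptor gene Flt3 (2.01), and Sox4 (-0.35) and Hif1a (-0.27) fell. In endothelial cells Epas1 (1.03, with other probes at 0.42 and -0.22) and Trib2 (0.58) rose.

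Known Myb targets gave 3 rises and 1 fall of 6 in GFP+ cluster cells. Gfi1, a repressor of the endothelial program (2.63), Mpo, a myeloid granule enzyme (1.53), and Kit (0.89), which the sort also used, rose, and the survival gene Bcl2 fell (-0.79). In endothelial cells Gfi1 rose (2.98), and Mpo (-0.52, with another probe at 0.00), Bcl2 (-0.44) and Cd34 (-0.29, but 0.11 with quantile normalization) fell. Between the classes Mpo was higher in cluster cells by 4.92 among GFP+ and 2.88 among GFP- cells. Of the known Mecom targets Cebpa (1.77) and Gata2 (0.50) rose in cluster cells. In endothelial cells Gata2 rose (0.23), and Cebpa was at least 1.24-fold higher, since it was not well above background in GFP- endothelial cells.

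Of 15 tested Mllt3 partners 2 rose in GFP+ cluster cells, Aff1 (0.35) and Mllt10 (0.25), and 2 fell, Ell2 (-1.16), an elongation factor, and Mllt6 (-0.32). In endothelial cells 4 rose, with Aff1 (0.77), Ccnt1 (0.43) and Ccnt2 (0.36) in front, and 6 fell, with Aff3 (-0.92), Ell2 (-0.65) and Cdk9 (-0.57, with other probes at -1.06 and 0.29) in front. The other Musashi gene, Msi1, and the known Msi2 target Numb did not pass by GFP in either class. The Msi1 probes disagree: the brightest read -0.13 in cluster cells and -0.34 in endothelial cells, and another -2.56 and -0.35.

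The human blood stem cell signature of 6 genes, which holds Hlf, Mecom and Mllt3, gave 5 rises of 6 with GFP in cluster cells and 6 of 6 in endothelial cells, with medians of 0.68 and 0.39, when 11.8% and 18.1% of all genes were called higher. With planned normexp all 6 endothelial values of this signature reversed. Its other members were Runx1 (1.96 in cluster cells, 0.88 in endothelial cells, with another probe at 2.15 and 2.18), the factor that the endothelial to hematopoietic transition needs, Hoxa9 (0.49 and 0.17) and Spink2. Spink2 was dim: it rose by 0.47 in cluster cells and was at least 1.19-fold higher in GFP+ than in GFP- endothelial cells. Of a set of factors used to induce stem cell activity in committed blood cells, which holds Hlf and Meis1, 7 genes were read. They gave 4 rises and 2 falls in cluster cells, with a median of 0.20, and 2 rises and 1 fall in endothelial cells, with a median of 0.16. Mycn (0.86) and Lmo2 (0.20) rose beside Hlf and Meis1, and Zfp37 (-0.84) and Runx1t1 (-0.44) fell. In endothelial cells Hlf and Meis1 rose, and Lmo2 fell (-0.23).

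Of 19 other regulators of blood stem cells 11 rose in GFP+ cluster cells and 3 fell, with a median of 0.26. Gfi1, Ikzf2 (2.01), an Ikaros family factor, and Runx1 had the largest rises, and Tcf15 (-0.77), Sox17 (-0.50), a factor of arterial endothelium, and Zfp521 (-0.42) fell. In endothelial cells 6 rose and 5 fell, with a median of -0.09. Gfi1, Ikzf2 (1.57, with another probe at 0.51) and Nkx2-3 (0.89) had the largest rises, and Gfi1b (-1.01), Erg (-0.58) and Tcf15 (-0.45) the largest falls.

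**Figure D4:**
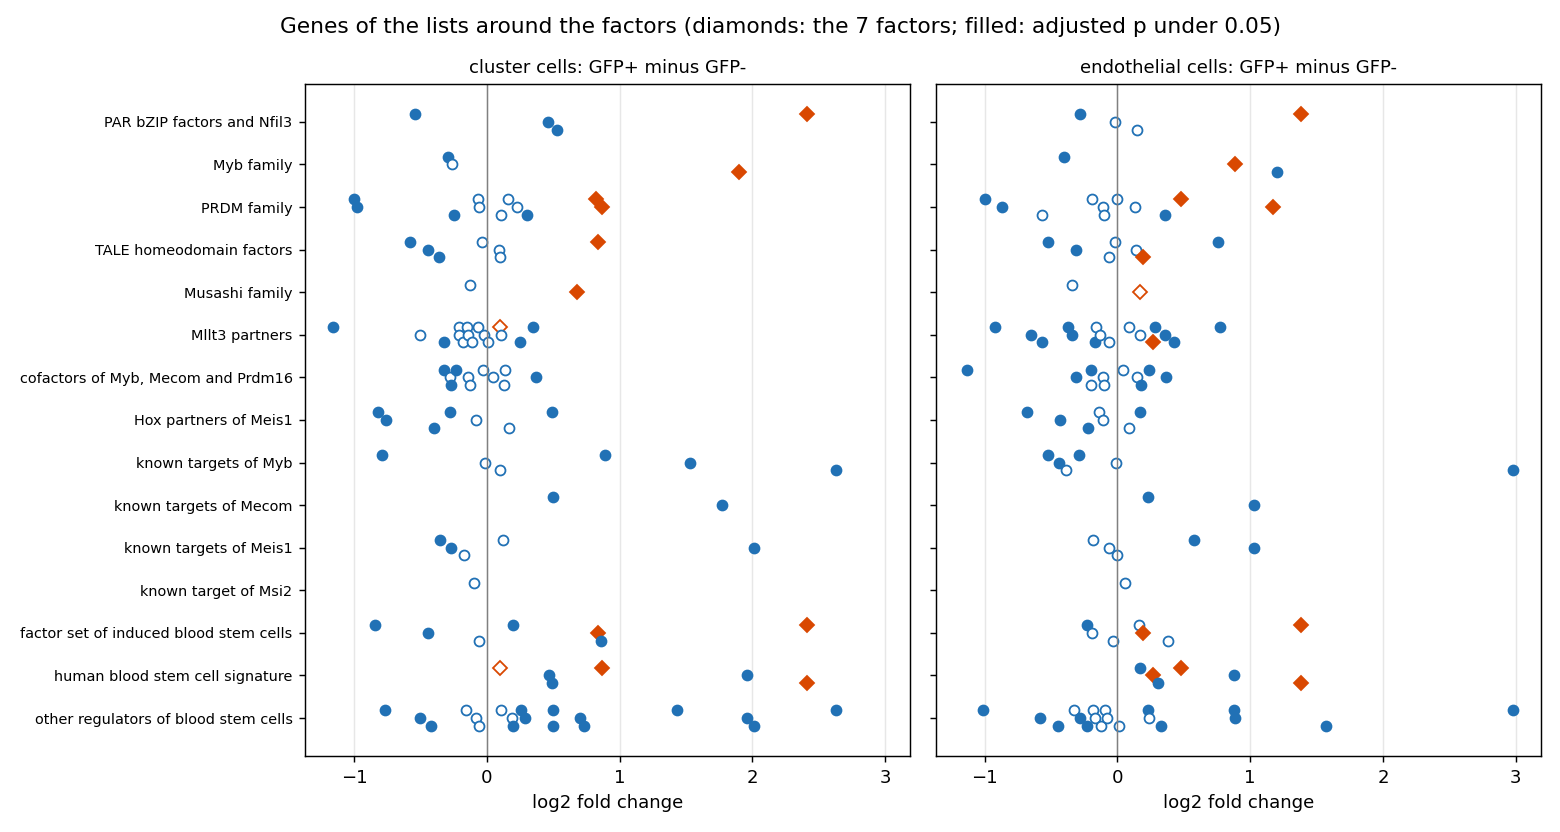
Log2 fold change (GFP+ minus GFP-) of the tested genes of the lists around the 7 genes, in cluster cells and in endothelial cells, with 1 row per list; diamonds are the 7 genes, circles the others, and filled symbols passed an adjusted p of 0.05. Most lists lie on both sides of 0, while all filled diamonds are above 0, up to 2.41 for Hlf in cluster cells.

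The genes whose pattern was most like that of each regulator were sought among 12257 genes with a symbol that were well above background on all 8 arrays. Likeness was the root mean square difference of log2 levels over the 8 arrays after each gene's own mean was subtracted. For Hlf the nearest genes were Ccl9 (0.228), a chemokine, Myo1g (0.292), a myosin of blood cells, and Slco4a1 (0.347), and Myb came at 0.360 with 0.0326% of genes nearer. For Myb they were Wdfy4 (0.306), Ccl9 (0.332) and Hlf (0.360). For Meis1 they were Sfrp2 (0.0414), a secreted modulator of Wnt signalling, Slc35g1 (0.0456) and Stk17b (0.0465). For Msi2 they were Pdxk (0.0666), Gcnt1 (0.0683) and Rnf208 (0.0704).

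Meis1 and Msi2 lay 0.0851 apart, with 0.0979% of genes nearer to Meis1 and 0.049% nearer to Msi2, so the set holds 2 close pairs, Hlf with Myb and Meis1 with Msi2. Prdm16 was nearest to Parp12 (0.120), Vegfc (0.135), a lymphatic and vascular growth factor, and Enpp4 (0.136). Of the set Mecom was nearest to it, at 0.394, with 4.41% of all genes nearer. Mecom was nearest to Cnp (0.104), Fjx1 (0.108) and Itprid2 (0.112), and Mllt3 to Rsf1 (0.0366), a chromatin remodelling factor, Cc2d1b (0.0422) and Fnip1 (0.0435). These distances describe 8 arrays of 4 groups that share their scaling, and the distance is small for any pair of genes that vary little.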

How the data were processed

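RNA of 4 sorted groups was measured on 8 one-colour arrays, 2 of divided RNA per group. Signals were extracted with Agilent Feature Extraction (version 10.10.1.1, per the file headers and the submitters' processing notes). The deposited intensity values include, for each spot, the mean signal, the local background and a processed signal already background-corrected by that software. A second deposited file holds the authors' own normalized intensity values, made by a method not given in the sources used here. Against the scanner files its values were linear, with r of 0.997 to 1.000 on the log2 scale and a median of 198 in each column. It served as an alternative. Its results were close to those with quantile normalization (Hlf by GFP in cluster cells was 2.46 with either), so these alternatives are not separate checks.

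From the 43020 non-control spots, those flagged as outliers were dropped, at a loss of 10 probes, and averaging repeat spots gave 39419 probes. Log2 of the signal minus the array's 75th percentile (708 to 1477 units) was the level. Names came through RefSeq accessions (26049 probes) or current symbols (3194), and 10176 probes kept the name in the file. The brightest probe stood for a gene. Testing took probes that 1 or more groups showed well above background on both arrays, and so covered 19538 genes. Limma 3.58.1 in R 4.3.3, with the data.table package (version 1.17.8), fitted 1 model over the 8 arrays with a mean per group and 4 residual degrees of freedom. Variances were moderated and two-sided tests adjusted by Benjamini-Hochberg at 0.05. It was tested on simulated data. Where neither array of a group had a gene well above background, its fold is a lower bound. Such a gene passed the filter through another group, which favours a difference between the groups. The bright group was then set against a floor, which on each array was the lowest signal of any probe well above background, or the gene's own signal if higher. Exon positions of the probes on mm9 were not used here.

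The 7 genes, the lists and the tests were chosen with earlier results of these data known. Named were all 7 genes with every probe, and for each list and comparison up to 3 called genes each way by size, or all where 5 or fewer passed; the text gives these for the GFP comparisons. Of the listed genes, Kmt2a was not analysed here. Some genes first placed in the lists are not reported here and were left out of the counts. Replicate 1 of every group lay on 1 slide and replicate 2 on another. Replicate differences correlated between groups with r from 0.139 to 0.359, above 0.1 for all pairs. The replicate numbers thus pair the arrays by slide, and these correlations cannot show whether the RNA fractions were also handled in pairs. The main model left the slide out, and the slide as a block was an alternative. The position of an array on its slide and its group cannot be told apart.

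Alternatives were normexp (offset 50), quantile normalization, the authors' table, other filters, other probe rules, only the compared groups in the fit, robust moderation with a trend, a slide block, differences within each slide and each array left out.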

Additional observations from a re-analysis of the deposited data

Results flagged for a closer look

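The GFP difference was larger in cluster cells than in endothelial cells for 4 of the 7 genes, by limma's test of the difference between the classes over all genes. For Hlf the log2 difference was 1.04 (adjusted p = 0.0463), for Myb 1.01 (adjusted p = 0.00219), for Meis1 0.64 (adjusted p = 0.00559) and for Msi2 0.51 (adjusted p = 0.0378). It was above 0 on both slides for each: 0.66 and 1.41 for Hlf, 0.92 and 1.11 for Myb, 0.61 and 0.67 for Meis1, and 0.35 and 0.67 for Msi2. Of all genes, 31.1% passed this test. The Hlf and Msi2 calls were each lost in 6 of the 8 fits that left out 1 array, and with no filter on dim probes (adjusted p = 0.111 and 0.104). Of 8 markers of blood cells in general, 7 also had a larger GFP difference in cluster cells, with a median of 1.13, and their part in these values was not tested.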

How the results depend on the processing

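The cause of each change below was not tested. With the replicate number (slide) as a block, no call of the 7 genes changed; Hlf in cluster cells by GFP kept 2.41 (adjusted p = 0.00153) and Meis1 in endothelial cells 0.19 (adjusted p = 0.05 when rounded, still under the threshold). Planned normexp left 0 of 7 genes called by GFP in cluster cells and 0 in endothelial cells, 2 between classes among GFP+ and 0 among GFP- cells, 0 for GFP- cluster over GFP+ endothelial cells, 3 for GFP+ cluster over GFP- endothelial cells and 0 for the difference of GFP differences. All genes called were then 127, 100, 137, 14, 134, 411 and 1, against 6397, 10061, 9840, 4742, 9201, 9879 and 6085. Under it the endothelial GFP difference reversed for Hlf (-0.38), Mecom (-0.44; dimmer probe -0.73), Mllt3 (-0.26), Prdm2 (-0.18), Ccnt2 (-0.61), Hdac2 (-0.29), Ehmt2 (0.14), Hoxa9 (-0.42), Cebpa (-1.03), Runx1 (-0.40), Spink2 (-1.10), Lmo2 (0.12), Ikzf2 (-0.23) and Mybl1 (-0.92). Between classes among GFP- cells it reversed Mllt3 (-0.28), Hoxa9 (-0.15), the dim Msi2 probe (-0.94) and the dimmer Mecom probe (-1.15; -0.02 among GFP+ cells). For GFP+ cluster over GFP- endothelial cells it reversed Mecom (-0.30; dimmer probe -0.75), Prdm16 (-0.29), Mllt3 (-0.18) and the dim Msi2 probe (-0.87), and for the difference of GFP differences Prdm16 (0.50), Mllt3 (0.36) and the dimmer Mecom probe (1.13).

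With the added normexp fit, the dimmer Mecom probe was at -0.02 and -0.13 between classes and 0.11 for the difference of GFP differences, Spink2 was at -0.06 in endothelial cells by GFP, and all genes called were 2730 between classes among GFP- cells, 5934 for GFP- cluster over GFP+ endothelial cells and 3754 for the difference of GFP differences. With quantile normalization the dimmer Mecom probe was at -0.20 and -0.11 between classes, Ehmt2 at 0.13 and Cd34 at 0.11; the authors' table gave -0.21, -0.13, 0.13 and 0.11. The mean of probes gave Msi2 -0.55 in endothelial cells by GFP and Mecom 0.00 between classes among GFP- cells. No filter on dim probes gave 2 of 7 genes for the difference of GFP differences, and 3792, 1466 and 2743 of all genes in cluster cells by GFP, between classes among GFP- cells and for the difference of GFP differences. With only the compared groups, 2576 genes were called between classes among GFP- cells.

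Leaving out each array in turn gave 5 to 6 of 7 genes by GFP in cluster cells, 3 to 6 in endothelial cells (3 without GFP+ endothelial replicate 1), 4 to 6 and 3 to 4 between classes, and 2 to 4 for the difference of GFP differences. All genes called then ran from 3679 to 5736, 7216 to 10080, 7466 to 9137, 1606 to 4214 and 3589 to 4657, and from 5580 to 9029 for GFP- cluster over GFP+ endothelial cells. The sign turned within the range for Mecom between classes among GFP- cells (-0.23 to 0.01), its dimmer probe (-0.13 to 0.36; -0.06 to 0.16 among GFP+ cells; -0.31 to 0.18 for the difference of GFP differences), the dim Msi2 probe (-0.22 to 0.50 in cluster cells by GFP; -0.06 to 0.65 between classes among GFP- cells) and Mllt3 for GFP- cluster over GFP+ endothelial cells (-0.11 to 0.07).

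Scaling moved all genes: the median by GFP in endothelial cells was -0.129, but -0.039 with quantile normalization and -0.038 with the authors' table, and the share of called genes that were higher was 35.2%, 48.3% and 48.4%. For GFP- cluster over GFP+ endothelial cells that share was 66.7%, 51.4% and 51.4%. Signals near background, as in Hlf and the dimmer Mecom probe in GFP- endothelial cells, limit the precision of low levels.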
